A study of Mus musculus with 6 samples.

Results

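The genes described here make, package, take up and break down the monoamine transmitters dopamine, noradrenaline and serotonin. There are 9 of them among the 55416 genes of the deposited count table: Slc18a2, Th, Ddc, Gch1, Slc6a2, Slc6a3, Slc6a4, Dbh and Maoa. They were chosen by gene symbol, and the set was built around Slc18a2 with its genotype difference in these same libraries already known. The genotype comparison of the 9 genes is therefore a description, and no p-value is given for them. The gene lists set beside them were also chosen with earlier results of these data known. Calls and adjusted p-values of list genes are thus descriptions too. Counts were measured by total RNA sequencing of mouse ganglionic eminences at E13.5 (E for embryonic day), the ventral forebrain swellings that give rise to GABAergic neurons of the striatum, cortex and olfactory bulb. The groups were 3 libraries from Dlx1/Dlx2 double knockout embryos and 3 from wildtype littermates. Both groups shared age and tissue, and the labels name no other allele or agent. The labels do not say how the alleles were made or whether a library came from 1 embryo or several, so the spread between libraries may be in part technical.

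In catecholamine neurons, tyrosine hydroxylase (Th) turns tyrosine into L-DOPA, using the cofactor tetrahydrobiopterin, whose synthesis begins with GTP cyclohydrolase (Gch1). Aromatic amino acid decarboxylase (Ddc) then forms dopamine, and in serotonin neurons it forms serotonin. The vesicular monoamine transporter VMAT2 (Slc18a2) loads monoamines into vesicles, dopamine beta-hydroxylase (Dbh) turns dopamine into noradrenaline, and the plasma membrane transporters for noradrenaline (Slc6a2), dopamine (Slc6a3) and serotonin (Slc6a4) take transmitter back up. Monoamine oxidase A (Maoa) breaks monoamines down. The best known dopamine neurons lie in the midbrain. The forebrain has further groups in the hypothalamus and the olfactory bulb, and the latter descend from Dlx-expressing progenitors.

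Slc18a2 and Th were the members whose levels were lower in the double knockout, and the sequence upstream of both is shown for that reason. The windows come from RefSeq on build GRCm38.p6 and were matched by symbol. They run from 150 bases before the annotated start to 20 bases after it, and the capitals mark TGACGTCA, the full cyclic AMP response element. The Slc18a2 window is chr19:59260728-59260897 on the plus strand, and the Th window is chr7:142899976-142900145 on the minus strand.
Slc18a2: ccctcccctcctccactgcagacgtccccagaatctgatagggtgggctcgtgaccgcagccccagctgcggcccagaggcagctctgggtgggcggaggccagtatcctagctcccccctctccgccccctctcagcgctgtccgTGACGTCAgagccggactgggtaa
Th: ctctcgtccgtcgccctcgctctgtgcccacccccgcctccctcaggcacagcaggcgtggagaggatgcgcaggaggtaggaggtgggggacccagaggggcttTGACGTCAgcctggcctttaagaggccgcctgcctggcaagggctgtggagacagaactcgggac
The element lies from -4 to 4 around the start of Slc18a2 and from -45 to -38 before that of Th.

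RefSeq windows of 300 bases, 250 before to 50 after the start, were at hand for 8 of the 9 members, with 9 windows in all since Ddc has several starts. TGACGTCA, which reads the same on both strands, occurred in 2 of these 9 windows, those of Slc18a2 and Th, and in 1.79% of the 32851 windows of all genes. TAATTA, the core letters that Dlx and many other homeodomain proteins bind, also reads the same on both strands and does not overlap with the first motif. It was found in 0 of the 9 windows and in 5.29% of all windows. The first motif was picked after these sequences had been read, so its count is a description, and a match or its absence in so short a window says nothing of binding.

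Total counts per library ranged from 56618090 to 70114173. In double knockout libraries, Dlx2 was at 7.5 to 11.0 CPM (read count scaled by library size, with TMM factors) against 282.0 to 313.0 in the wild type, and Dlx1 at 74.9 to 94.0 against 434.0 to 446.0, so no library went against its label. Double knockout replicate 3 stood apart from the other double knockout libraries: the chi-square statistic per gene was 29.74 and 36.37 against them and 13.11 between those 2. Wild-type pairs lay between 20.38 and 21.67. Y-linked transcripts were present in wild-type replicate 1 and double knockout replicates 2 and 3, so both genotypes have libraries with and without them. With these transcripts as a covariate in the fit, the log2 fold change was -1.70 for Slc18a2 and -1.52 for Th. Of 23628 tested genes, edgeR's quasi-likelihood test called 634 at an adjusted p under 0.05, or 2.68%: 317 were higher (1.34%) and 317 lower (1.34%) in the double knockout. Without double knockout replicate 3 it called 749.

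Of the 9 members, 6 passed the filter on low counts, and 2 of those 6 were called, both lower, in a comparison that called 2.68% of all genes. Their groups did not overlap, as for 19.5% of all tested genes in either direction and 10.2% lower in the double knockout. Since the set was built on this contrast, nothing is read from these counts. The median log2 fold change over the 6 was -0.12, beside -0.002 over all tested genes. The filter left out Slc6a2, Slc6a3 and Dbh. In bulk tissue, fewer cells of a type and less RNA per cell cannot be told apart.

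Among the 6 tested members, the gene for vesicle loading had the highest level per length in the wild type and was lower in the double knockout. Slc18a2 (ENSMUSG00000025094) had 3172, 3526 and 3796 reads in the wild-type libraries, in order of replicate number, and 1081, 1013 and 1227 in those of the double knockout. Scaled by library size, these were 54.1, 54.9 and 59.2 CPM in the wild type and 16.7, 17.6 and 17.7 CPM in the double knockout. Every double knockout library was far below every wild-type library, and the values within each genotype lay close together. The group levels were 56.1 ± 2.72 CPM (SD, n = 3) and 17.3 ± 0.566 CPM (SD, n = 3), which leaves 30.9% ± 1.01 of the wild-type mean. This 1.01 is the SD of the double knockout libraries only, over the wild-type mean. The log2 fold change was -1.70 (SE 0.0635), and -1.71 without double knockout replicate 3. Among the 297 called decreases with a mean of at least 1 CPM it ranked 35 by size. The spread between double knockout libraries, a coefficient of variation of 3.27%, was near the 3.01% that counting alone gives, and in the wild type it was 4.86% against 1.69%. An antisense gene, Gm29261, overlaps 111 of the 5225 exon bases of Slc18a2 in GENCODE M21, but at most 1 read was assigned to it in any library.

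Among the synthesis genes, Th was also lower. Th (ENSMUSG00000000214), the first and rate-limiting enzyme of catecholamine synthesis, had 282, 332 and 322 reads in the wild type and 99, 86 and 165 in the double knockout. The levels were 4.81, 5.17 and 5.02 CPM against 1.53, 1.49 and 2.38 CPM. The groups did not overlap, but double knockout replicate 3 was well above the other double knockout libraries. The means of 5.0 ± 0.177 and 1.80 ± 0.503 CPM (SD, n = 3 each) leave 36.0% ± 10.1 of the wild-type level. Again, the 10.1 is the SD of the double knockout libraries only. The log2 fold change was -1.47 (SE 0.191), and -1.72 without double knockout replicate 3. The coefficient of variation of Th in the double knockout, 28.0%, exceeded the 9.26% of counting error, whereas in the wild type it was 3.55% against 5.66%.

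**Figure D1:**
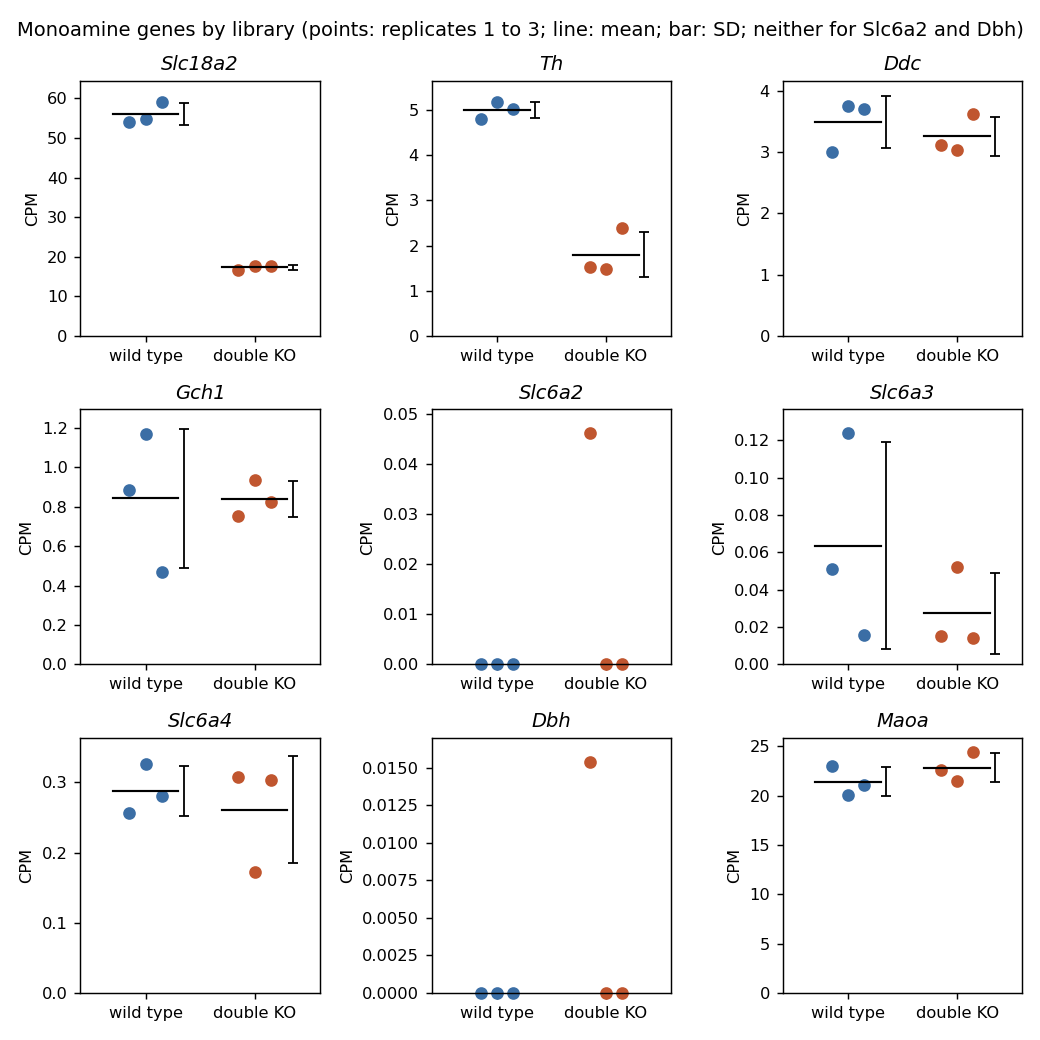
TMM-normalised CPM (y axis, from 0, a scale of its own for each gene) of the 9 monoamine genes in the 3 wild-type (blue) and 3 double knockout (orange) libraries, with the mean (line) and SD (bar) except for Slc6a2 and Dbh, which are at or near 0. Slc18a2 and Th are lower in every double knockout library than in any wild-type library, and the groups of the other genes overlap or, for Slc6a2 and Dbh, share values of 0.

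The enzyme that acts after Th did not follow it. Ddc (ENSMUSG00000020182) was at 3.0, 3.76 and 3.71 CPM in the wild type and 3.11, 3.04 and 3.63 CPM in the double knockout. The groups overlapped, and the log2 fold change was -0.10 (SE 0.145). Gch1 (ENSMUSG00000037580), the cofactor enzyme, was at 0.887, 1.17 and 0.468 CPM against 0.755, 0.937 and 0.822 CPM. Its double knockout libraries all lay within the wild-type range, and the log2 fold change was -0.01 (SE 0.322). The wild-type libraries of Gch1 varied by 41.9%, where counting error gives 13.8%, so only a large difference would have been detectable. Neither gene was called.

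Dbh (ENSMUSG00000000889), the enzyme of noradrenaline synthesis, had 0 reads in all wild-type libraries and 1, 0 and 0 in the double knockout. A count of 0 allows up to 3 reads, or 0.0467 to 0.0512 CPM in the wild-type libraries, and such limits cover counting error only, as reads carried no molecular identifiers. The noradrenaline transporter Slc6a2 (ENSMUSG00000055368) likewise had 0 reads in the wild type and 3, 0 and 0 in the double knockout. Both genes were at or under this limit in every library, and no fold is given.

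The dopamine transporter Slc6a3 (ENSMUSG00000021609) was detected at the edge of this depth, with 3, 8 and 1 reads in the wild type and 1, 3 and 1 in the double knockout. The ratio of its summed counts, 5 against 12, was 0.406 after scaling (95% exact interval 0.112 to 1.24, for counting error only), so a difference was not detectable. Slc6a4 (ENSMUSG00000020838), the serotonin transporter, had 15, 21 and 18 reads in the wild type and 20, 10 and 21 in the double knockout. Its levels of 0.288 ± 0.0359 and 0.261 ± 0.0763 CPM (SD, n = 3 each) overlapped, and the log2 difference was -0.13 (SE 0.352). The spread of Slc6a4 between wild-type libraries, 12.5%, was below the 23.6% that its low counts give by chance of counting alone.

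Breakdown was represented by Maoa (ENSMUSG00000025037), an X-linked gene. Its levels were 23.0, 20.1 and 21.1 CPM in the wild type and 22.6, 21.5 and 24.4 CPM in the double knockout. The groups overlapped, with means of 21.4 ± 1.49 and 22.8 ± 1.45 CPM (SD, n = 3 each). The log2 fold change of Maoa was 0.09 (SE 0.0818), and 0.06 with the presence of Y-linked transcripts as a covariate, and it was not called in either fit.

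Levels of different genes were compared per kilobase of annotated exon. In the wild type, Slc18a2 was highest at 10.7 ± 0.521 CPM per kb (SD, n = 3), followed by Maoa at 5.14 ± 0.358, Th at 2.11 ± 0.075 and Ddc at 0.783 ± 0.0952 CPM per kb. Gch1 at 0.134 ± 0.0563, Slc6a4 at 0.0635 ± 0.00792 and Slc6a3 at 0.0184 ± 0.0161 CPM per kb came next. Slc6a2 and Dbh were at 0 and could not be ordered. For each other neighbouring pair the wild-type libraries of the 2 genes did not overlap, with Gch1 and Slc6a4 the closest. In the double knockout the order was different at the top: Maoa, at 5.48 ± 0.348 CPM per kb, was above Slc18a2, at 3.31 ± 0.108, and the libraries of Th (0.761 ± 0.213) and Ddc (0.731 ± 0.0729) overlapped. That overlap depends on the length used: per kilobase of the longest transcript, Th was at 0.782, 0.765 and 1.22 in the double knockout, below Ddc at 1.62 ± 0.161 CPM per kb (SD, n = 3), and the libraries of the 2 genes did not overlap. Per kilobase of merged exons, Slc18a2 lay above 78.0% of all tested genes in the wild type and above 55.7% in the double knockout. The corresponding shares for Th were 48.0% and 32.4%.

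Th stood in much the same proportion to Slc18a2 in all libraries except double knockout replicate 3. Per length, the Th level was 19.6%, 20.8% and 18.7% of the Slc18a2 level in the wild-type libraries and 20.2%, 18.8% and 29.7% in the double knockout. The groups overlapped, with double knockout replicate 3 the highest. The Ddc level was 6.50%, 8.04% and 7.34% of that of Slc18a2 in the wild type and 21.9%, 20.2% and 24.1% in the double knockout, without overlap. With the longest transcript as length these shares were higher, at 12.1%, 14.9% and 13.6% in the wild type and 40.7%, 37.6% and 44.7% in the double knockout, and again did not overlap. The Maoa level was 48.0% ± 4.68 of that of Slc18a2 in the wild type and 165.0% ± 10.4 in the double knockout (SD, n = 3 each). Slc18a2 is the denominator of these shares, and neither Ddc nor Maoa was called. The higher Ddc and Maoa shares thus restate the lower Slc18a2 level and are no further result.

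**Figure D2:**
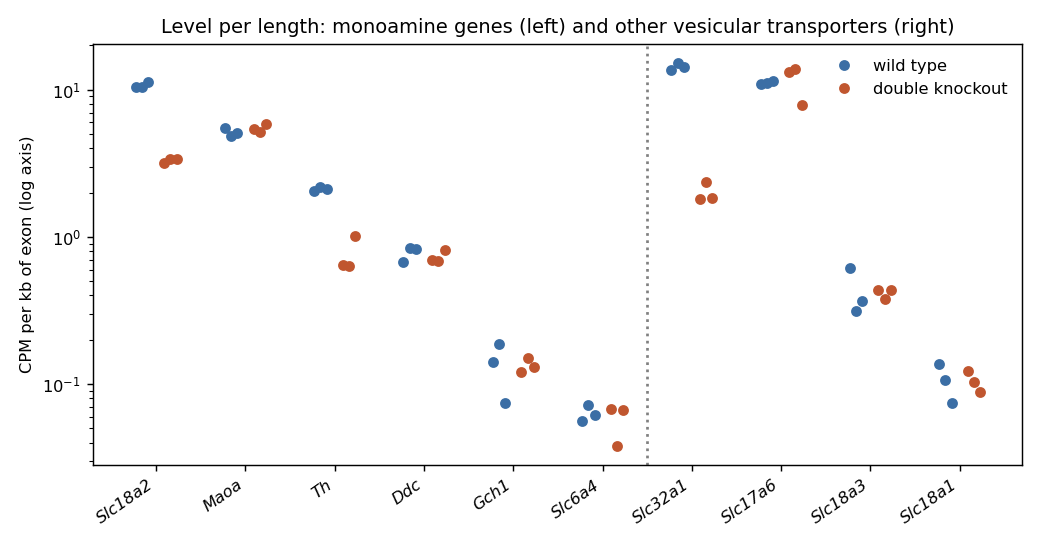
TMM-normalised CPM per kilobase of exon (log y axis) in each wild-type (blue) and double knockout (orange) library, for the 6 tested monoamine genes on the left and other vesicular transporter genes on the right. Slc18a2 moves from above Maoa in the wild type to below it in the double knockout. Lengths are merged exons, with which the double knockout libraries of Th and Ddc overlap.

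The position of Slc18a2 among the vesicular transporters was examined with the other genes of that kind. Per length, wild-type Slc18a2 lay close below Slc17a6, a vesicular glutamate transporter, at 11.2 ± 0.327 CPM per kb, and Slc32a1, the vesicular GABA transporter, at 14.4 ± 0.737. Its nearest relatives were far lower in the wild type. Slc18a3, which loads acetylcholine, was at 0.433 ± 0.16 and Slc18a1, the other vesicular monoamine transporter, at 0.106 ± 0.0304 CPM per kb. Slc18b1, in the same list, was at 5.28 ± 0.482 CPM per kb in the wild type and 5.55 ± 0.232 in the double knockout. Of the 7 other vesicular transporter genes, all tested, 1 was called and it was lower, where 2.68% of all tested genes were called. That gene, Slc32a1, had 38.3, 42.4 and 40.1 CPM in the wild type but 5.05, 6.56 and 5.12 CPM in the double knockout. It fell by 2.85 on the log2 scale (SE 0.113, edgeR adjusted p of 6.83e-06). The antisense gene Gm14205 overlaps 697 of its 2797 exon bases. Slc18a2 was at 74.6% ± 4.94 of the level of Slc32a1 per length in the wild type and at 168.0% ± 21.9 in the double knockout (SD, n = 3 each). Slc17a6 was not called, at 58.6, 60.4 and 62.1 CPM in the wild type and 71.4, 75.0 and 42.3 CPM in the double knockout, where replicate 3 was the lowest. For Slc18a1 the log2 fold change was -0.02 (SE 0.292), and for Slc18a3 it was -0.05 (SE 0.271).

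The rest of the monoamine pathway was taken from 4 further lists. Of 4 other synthesis genes, 2 were tested and none was called. Tph2, the neuronal tryptophan hydroxylase of serotonin synthesis, had 3 to 12 reads per library, and Tph1 was at 0.295 ± 0.0405 and 0.264 ± 0.057 CPM. Pnmt, which makes adrenaline, had 0 to 12 reads. Hdc, which makes histamine, was at 0.727 ± 0.336 and 0.983 ± 0.261 CPM. Of 6 genes that make or recycle tetrahydrobiopterin, 5 were tested and none was called, with a median log2 fold change of 0.01. Pts and Spr, which follow Gch1 in that pathway, were at 17.3 ± 0.37 and 8.08 ± 0.397 CPM in the wild type and 17.4 ± 0.871 and 8.16 ± 0.0844 CPM in the double knockout. Qdpr, which recycles the cofactor, was at 11.8 ± 1.46 and 13.1 ± 1.55 CPM.

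Of the 4 low-affinity uptake genes only Slc29a4, the plasma membrane monoamine transporter, was tested. It had 60.8, 58.6 and 60.9 CPM in the wild type and 49.7, 51.9 and 51.5 CPM in the double knockout, without overlap. Slc29a4 fell by 0.24 on the log2 scale (SE 0.049, edgeR adjusted p of 0.0442), a call that was lost in 10 of 14 other settings, with an adjusted p of up to 0.181 without wild-type replicate 1. None of the 7 other breakdown genes was called, and their median log2 fold change was 0.08. The most abundant were Akr1a1, at 188.0 ± 9.40 and 179.0 ± 6.10 CPM, and Aldh2, at 39.5 ± 0.893 and 41.8 ± 2.86 CPM, which act on the aldehydes that monoamine oxidases form. Maob, the other monoamine oxidase, was at 0.81 ± 0.0862 and 0.854 ± 0.115 CPM, far below Maoa per length (0.29 ± 0.0309 against 5.14 ± 0.358 CPM per kb in the wild type). Over the 5 pathway lists together, 22 of 28 genes were tested, 2 were lower, none was higher, and the median log2 fold change was 0.01. Among all tested genes, 1.34% were called lower and 1.34% higher. In the synthesis, tetrahydrobiopterin and breakdown lists, where edgeR called 0 genes, 0 had an unadjusted p under 0.05, and DESeq2 and limma-voom also called 0.

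Transcription factors that specify monoamine neurons elsewhere were set beside Slc18a2 and Th. The midbrain dopamine regulators Foxa2 and Pitx3 had 0 and 0 to 3 reads per library, and none of the 3 tested genes of the 8 in that list was called. Nr4a2, the most abundant of them, was at 17.4 ± 1.07 and 14.4 ± 1.47 CPM, and Lmx1a at 0.617 ± 0.462 and 0.586 ± 0.615 CPM. Fev, a defining factor of serotonin neurons, had 0 to 2 reads. Foxa2, Pitx3 and Fev were thus at or near 0, but other genes of the same lists had reads in every library. Nr4a2 had 849 to 1184, Lmx1a 8 to 84 and Gata2 41 to 77 reads per library. Which cells the Slc18a2 reads came from was not tested. None of the 3 tested serotonin regulators was called, with Gata2 at 0.865 ± 0.122 and 0.869 ± 0.212 CPM and Gata3 at 0.182 ± 0.0247 and 0.596 ± 0.241 CPM. Tfap2b was the only tested gene of the 5 noradrenaline and sympathetic regulators and rose from 0.0828 ± 0.0764 to 3.26 ± 0.608 CPM (edgeR adjusted p of 3.49e-04). In the midbrain list, where edgeR called 0, 2 genes had an unadjusted p under 0.05, and DESeq2 and limma-voom called 0. In the serotonin list, where edgeR also called 0, 1 gene had such a p, and DESeq2 called 1 and limma-voom 0.

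In the forebrain lists, regulators moved in both directions while Th fell. For comparison, 1.34% of all tested genes were called higher and 1.34% lower. Of 7 olfactory bulb dopamine neuron regulators, all tested, 2 were lower and 1 higher. Sp8, a zinc finger factor of olfactory bulb interneurons, fell from 37.3, 40.2 and 42.4 CPM to 15.3, 13.4 and 7.78 CPM, lowest in double knockout replicate 3, where Th was highest. Its log2 fold change was -1.72 (SE 0.211, edgeR adjusted p of 0.00362). Meis2 fell by 0.45 on the log2 scale (SE 0.0656, edgeR adjusted p of 0.00895), a call that was lost without double knockout replicate 2, at an adjusted p of 0.0502. Sall3, which is needed for Th expression in the olfactory bulb, rose by 0.93 (SE 0.0755, edgeR adjusted p of 4.13e-04). Pax6 was at 73.8 ± 7.11 and 72.5 ± 3.71 CPM and was not called. Of 9 hypothalamic regulators, 8 were tested, 3 were higher and none was lower. These were Otp, Hmx3 and Hmx2, with log2 fold changes of 3.65, 2.63 and 1.87, and Otp (edgeR adjusted p of 1.99e-04) is a factor of hypothalamic dopamine neurons.

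**Figure D3:**
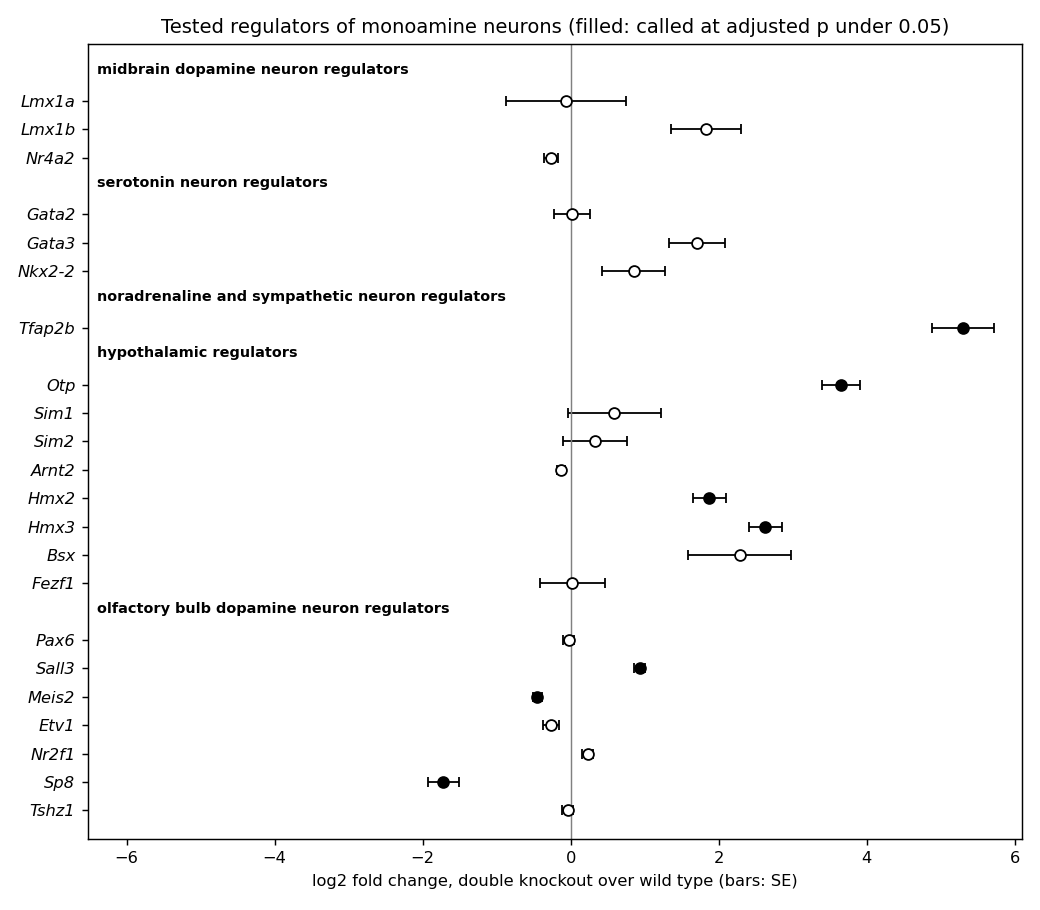
Log2 fold change, double knockout over wild type (x axis, bars are SE), of the tested transcription factor genes in 5 lists of monoamine neuron regulators, with called genes filled. Tfap2b, Otp, Hmx2, Hmx3 and Sall3 are called higher, and Sp8 and Meis2 lower.

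The genes whose profile was most like that of Slc18a2 were found by Pearson's r of log2(CPM + 0.5) over the 6 libraries, among 16463 other genes with a symbol and a mean of at least 1 CPM. The 5 highest were Sowaha (0.9986), Gad2 (0.9985), Dlx5 (0.9981), Dlx2 (0.9980) and Rai2 (0.9980). These values are descriptions: the 6 points fall into the 2 genotypes and share their libraries, and 252 genes had an r above 0.95. Pearson's r ignores the size of a change, and Dlx2 is itself a knocked-out gene. The log2 fold changes of the 5 genes were, in that order, -2.77, -1.38, -2.93, -5.09 and -0.82, beside -1.70 for Slc18a2. Th ranked 150, with an r of 0.9679, Ddc had an r of 0.3713 and Maoa of -0.5144. The genes of the GABA-synthesising enzymes retained a somewhat larger share than Slc18a2, 36.0% ± 2.0 for Gad1 and 38.6% ± 1.04 for Gad2 beside 30.9% ± 1.01. Slc32a1 retained a smaller share, 13.8% ± 2.11. Each ± is the SD of the double knockout libraries (n = 3) over the wild-type mean, without the wild-type spread.

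Marker genes of other cells and regions were summed in each library beside Slc18a2 and Th. The 6 ganglionic eminence markers were at 941.0 to 994.0 CPM among wild-type libraries and 676.0 to 879.0 CPM among double knockout libraries, and each of the 6 was detected in both genotypes. They did not move together: Gad1, Gad2 and Lhx6 were called lower, with log2 fold changes of -1.47, -1.38 and -0.83, while Nkx2-1 (0.59) and Gsx2 (0.64) were called higher. The 5 cortical markers were at 658.0 to 666.0 and 506.0 to 540.0 CPM. The 3 thalamic markers were at 66.8 to 78.0 and 87.2 to 114.0 CPM, and neither sum overlapped between the genotypes. In both lists edgeR and limma-voom called 0 genes, whereas DESeq2 called 3 cortical and 2 thalamic genes. The part of these regions in the lower Slc18a2 and Th was not tested. Platelets and mast cells carry Slc18a2 and, in platelets, Slc6a4 protein. The 7 megakaryocyte and mast cell markers summed to 3.90 to 5.66 CPM among wild-type libraries and 4.40 to 5.98 CPM among double knockout libraries, which overlap, with Cpa3 and Mcpt4 at or near 0. The sums of erythroid, endothelial, mural, meningeal and microglial markers overlapped between the genotypes as well.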

How the data were processed

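The authors deposited whole-number read counts per gene, not normalised, with 1 column per library. Per the submitters' processing notes, featureCounts was used on build GRCm39. The aligner, annotation release and strand, pairing and multi-mapping settings are not given in the sources used here. Per the labels' protocols, libraries were stranded total RNA after ribosomal RNA depletion. Symbols and identifiers are those of the table, in which 1492 genes have no symbol. GENCODE M21, used for exon length and overlap, is on GRCm38, so no gene coordinates on the authors' build are given; the RefSeq promoter windows carry their own GRCm38.p6 positions. Of tested genes, 98.7% had a length.

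Groups came from the titles in the labels. Low genes were removed with filterByExpr (minimum count 10, minimum total 15) and tested with edgeR 4.0.16 in R 4.3.3, with TMM scaling, the quasi-likelihood test, a prior count of 0.125 and Benjamini-Hochberg adjustment over all 23628 tested genes. SE is the coefficient divided by the square root of F. The model was tested on simulated data. The members, lists and tests were chosen with earlier results of these data known. Named genes were all 9 members, up to 4 called genes per list by size of change, and, where fewer than 2 were called, up to 2 by mean level. Marker lists are given as sums, with single calls for the ganglionic eminence list named after values were seen. Slc18a1, Slc18a3, Slc18b1, Tph2, Pnmt, Foxa2, Pitx3, Fev, Pax6, Spr, Maob and Gm29261 were named for their role after values were seen. Some listed genes are counted but not reported here. Alternatives were other scalings, DESeq2 1.42.0, limma-voom (limma 3.58.1), other filters, a replicate block, a Y-linked covariate and each library left out.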

Additional observations from a re-analysis of the deposited data

How the results depend on the processing

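Slc18a2 kept its direction and its call in all 14 alternatives, with a log2 fold change from -1.72 to -1.65, and Th in all 14, from -1.72 to -1.35. Both ends of each range came from leaving out 1 library. Maoa stayed above 0 (0.05 to 0.15) and Ddc below it (-0.20 to -0.04), uncalled. Gch1, at -0.01 and uncalled, was at 0.02 with total count scaling, 0.08 with limma-voom, 0.00 without a filter and 0.06 with the replicate block, and between -0.30 and 0.31 without 1 library. Slc6a4 was between -0.26 and 0.08 without 1 library. Same-numbered libraries did not deviate together (r of -0.0694, -0.00223 and 0.00182), so the replicate number was not taken as a pairing. With the replicate block, Slc18a2 was at -1.70 and Th at -1.50, and 8 list genes were called in place of 9. Over all alternatives 7 to 11 list genes were called. The number of all called genes, 634, was 1135 with DESeq2, 357 with the Y-linked covariate, 275 at an adjusted p under 0.01 and 309 to 749 without 1 library, lowest without wild-type replicate 1; the cause was not tested. With the longest transcript as length, Slc18a2 was at 12.8 in place of 10.7 CPM per kb, and the wild-type order of the members was the same; in the double knockout Th (0.922 ± 0.258) was then below Ddc (1.62 ± 0.161). Depth limits Slc6a3, Slc6a2 and Dbh, whose differences were not detectable.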
